A study of Mus musculus with 31 samples.

Results

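F-box substrate receptors of the Fbxl, Fbxo and Fbxw series were followed in ribosome-protected fragments (RPFs) and total RNA of mouse squamous cell carcinoma (SCC) cells under proteasome inhibition. Members were all genes whose symbol is Fbxl, Fbxo or Fbxw followed by a number, which gave 77 of the 24594 genes in the count tables. Of them, 19 were Fbxl, 36 Fbxo and 22 Fbxw genes. The rule reads symbols alone, and the family was chosen with earlier results of these data known.

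The cells come from a skin SCC line transformed by HRasG12V. The labels give TgfbrII as floxed (fl/fl) in all samples, whereas the study lists both lines with TgfbrII deleted. In all of them the endogenous Eif2s1 gene, which encodes the translation factor eIF2α, was ablated by CRISPR, and a transgene driven by the PGK promoter stood in for it. S51 cells carried the wild-type form and could raise the integrated stress response (ISR), whereas S51A cells carried a form whose serine 51 was replaced by alanine and were ISR-null. Cells received vehicle (DMSO) or bortezomib, a proteasome inhibitor, at 100 nM for 4.5 h according to the labels. RPFs were sequenced in 15 libraries (3 of S51 vehicle and 4 of each other group), and total RNA in 16 (4 per group). The study worked with single-cell-derived clones of each genotype, and the labels do not tie a library to a clone, so a difference between S51A and S51 is also one between clones. Replicates are described both as technical and as independent, and p-values measure the spread between these samples only.

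An F-box protein is the exchangeable part of an SCF ubiquitin ligase. Its F-box binds the adaptor SKP1, which docks on the scaffold CUL1 with the RING protein RBX1, and the rest of the protein grips the substrate. Leucine-rich repeats do so in the Fbxl series, WD40 repeats in the Fbxw series and various other domains in the Fbxo series. Many substrates are bound once phosphorylated and are then degraded by the proteasome, the step that bortezomib blocks. The receptors of the cell cycle (Fbxw7, Fbxo5, Fbxo31), of transcription factors of the Snail family (Fbxl14), of misfolded glycoproteins (Fbxo2, Fbxo6, Fbxo44) and of muscle wasting (Fbxo30, Fbxo32) are among the best known.

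The libraries held 1038826 to 4902237 RPF counts and 18758668 to 22994713 total RNA counts on genes. Levels are given as TMM-scaled CPM (counts per 1000000), and fold changes on the log2 scale with their SE. A change was called where edgeR's quasi-likelihood test across all genes gave an adjusted p under 0.05 and the fold exceeded 1.5. Eif2s1 was read at 279 to 314 CPM in every total RNA library. Its counts do not separate the endogenous gene from the transgene, so they do not check the ablation. Its RPFs were at 81.2 to 171 CPM in S51 vehicle and 213 to 260 CPM in S51A vehicle (0.73 ± 0.17 SE, adjusted p = 0.00234), and with bortezomib the difference was 0.29 ± 0.16 (SE, adjusted p = 0.166). The lowest of these values was that of S51 vehicle replicate 2, the RPF library that stood apart most. Its chi-square per gene was 12.4 and 17.3 against the other S51 vehicle libraries, which had 2.01 between them, and other RPF replicate pairs had at most 4.77. Without it 8 members in place of 12 were called in RPFs of S51 with bortezomib, and 2 in place of 4 for S51A against S51 under vehicle. The share of all genes called without this library was not counted, so these drops do not set the members apart. Hspa1b, an inducible chaperone, went in total RNA from a mean of 35.8 to 971 CPM with bortezomib in S51 and from 46.5 to 981 CPM in S51A. RPFs of Atf4, the ISR transcription factor, went from a mean of 189 to 520 CPM with bortezomib in S51 and from 126 to 132 CPM in S51A. Keratinocyte genes were abundant but did not move together with bortezomib. Total RNA means of Krt5 went from 3860 to 6020 CPM in S51 and from 4690 to 5600 CPM in S51A, and those of Trp63 from 342 to 181 CPM and from 401 to 195 CPM. Itga6 was at 1260 CPM in S51 vehicle and 2140 CPM in S51A vehicle. The part of these differences in the results below was not tested. The muscle gene Myog had at most 0.0503 CPM in any total RNA library and no RPF. Acta1, also of muscle, had group means of 1.32 to 1.75 CPM in RPF and 0.104 to 0.173 CPM in total RNA. Of the fibroblast genes read, Pdgfra had means of 2.46 to 6.81 CPM in RPF and 3.08 to 5.61 CPM in total RNA. Col1a2 had no count in any library, and Col1a1 had at most 0.415 CPM.

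Of the 77 members, 15 had no total RNA count in any library. These were Fbxo27, Fbxo40 and 13 members of the mouse Fbxw expansion (Fbxw13 to Fbxw16, Fbxw18 to Fbxw22, Fbxw24 and Fbxw26 to Fbxw28). The expansion is known for similar copies, whose sequence identity was not measured here, and only uniquely mapped reads were counted. Absence of reads therefore does not show that these genes were silent, and whether mapping removed reads was not tested. Among RPFs 22 members had no count. The filter on low counts left 40 members for RPF, 52 for total RNA and 40 for their ratio. By series these were 11 Fbxl, 22 Fbxo and 7 Fbxw genes in RPF, and 15, 28 and 9 in total RNA. Fbxl12os, a transcribed pseudogene that meets the rule by its symbol, was listed in total RNA only. All statements below on tested members concern these, and 26 of them were called in at least 1 of the 15 comparisons made. The share of all genes called in at least 1 of them was not counted, so this number does not set the family apart.

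Set against coding length, the receptors had modest RPF levels, which depend on mRNA level as well as on translation. Their ratio of RPF to total RNA in S51 vehicle lay near the middle of all genes. It was below the gene median for 21 of 40 members, with a median percentile of 45.8. In S51 vehicle, the median of the 40 tested members was 13.5 RPF CPM per kilobase of counted coding sequence, against 23.4 over 9441 genes, and 28 of the 40 lay under that gene median. The highest 5 were Fbxw8 (60.6 ± 9.86, mean ± SD, n = 3), a partner of CUL7, Fbxo28 (60.3 ± 3.78), Fbxl6 (52.4 ± 16), Fbxo3 (38 ± 9.17) and Fbxo5 (30.9 ± 1.1). Fbxo31 (30.8 ± 10) and Fbxw11 (30 ± 6.28), which encodes the receptor of IκB and β-catenin known as β-TrCP2, came next. Neighbours in this order differed by less than the larger of their SDs. At the other end stood Fbxo2 at 1.85 RPF CPM per kilobase, Fbxo9 at 2.65 and Fbxo34 at 2.88. Fbxo2 and Fbxo34 are among the members that rose with bortezomib.

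Bortezomib moved F-box receptors in both directions. In RPFs of S51 cells, 5 of the 40 tested members were called higher (12.5%) and 7 lower (17.5%), where 7.38% and 11.2% of all 9457 genes tested were called higher and lower. In S51A cells 4 were higher (10%) and 3 lower (7.50%), against 4.19% and 6.67% of all genes. In total RNA of S51 cells 4 of 52 members were higher (7.69%) and 8 lower (15.4%), with 5.70% and 9.59% among all 11708 genes. In total RNA of S51A cells 5 were higher (9.62%) and 6 lower (11.5%), with 4.54% and 8.57% among all genes. The median log2 fold change of the tested members was -0.03 in RPF of both genotypes, -0.06 in total RNA of S51 and -0.05 in that of S51A, and the medians over all genes lay between -0.01 and 0. Without the fold threshold, 31 of 52 members (59.6%) had an adjusted p under 0.05 in total RNA of S51, against 59.8% of all genes. With scaling by library size alone, which shifted the median of all genes by -0.16 in total RNA of S51 and -0.13 in that of S51A, the counts of higher and lower members became 4 and 11 in S51 and 3 and 10 in S51A. Under that scaling 18.4% of all genes were called in either direction in S51 and 15.4% in S51A. In the heatmap of fold changes the members called in both genotypes and in both kinds of library are Fbxo30, Fbxo34 and Fbxw9, which rose, and Fbxo5 and Fbxo31, which fell.

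**Figure D1:**
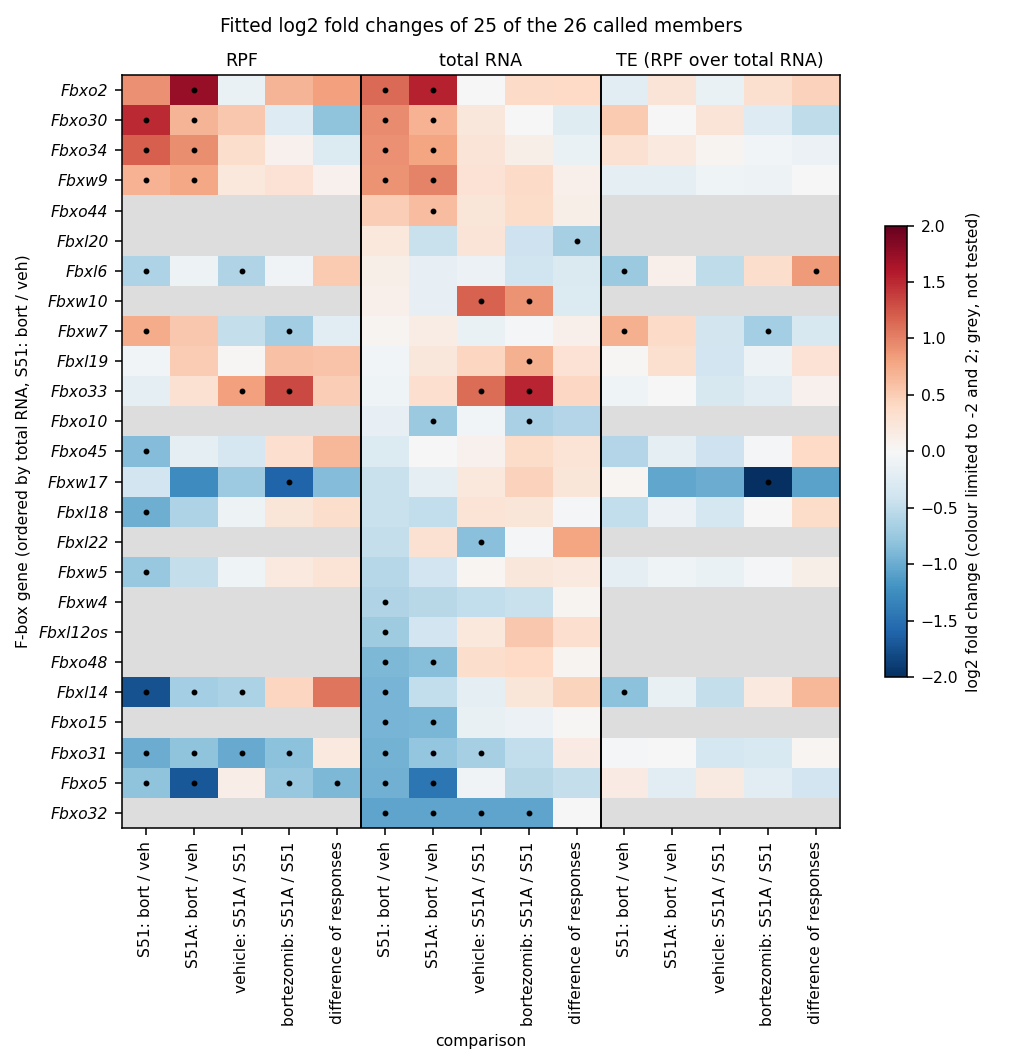
Log2 fold changes of the F-box members called in at least 1 comparison (rows, 1 member left out) in RPF, total RNA and TE comparisons (columns), as colour, with black dots on the calls of edgeR and grey where a member was not tested. Colours stop at -2 and 2, just short of Fbxw17 TE at -2.07. Fbxo30, Fbxo34 and Fbxw9 are higher and Fbxo5 and Fbxo31 lower with bortezomib in both genotypes.

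Receptors that rose in both kinds of library and in both genotypes were Fbxo30, Fbxo34 and Fbxw9. Fbxo30 encodes a receptor known from muscle atrophy, where it is called MUSA1. Its RPF level was 23.7, 13.5 and 35.9 CPM with vehicle and 68.4, 70.8, 75.3 and 73.4 CPM with bortezomib in S51, against 30.4, 36.1, 40.2 and 41.8 CPM with vehicle and 71.5, 54.1, 70.7 and 44.9 CPM with bortezomib in S51A. Bortezomib libraries lay above vehicle libraries of their genotype without overlap, and the S51 vehicle libraries were the most spread. The RPF log2 fold change was 1.49 ± 0.22 (SE, adjusted p = 1.74e-05) in S51 and 0.69 ± 0.18 (SE, adjusted p = 0.01) in S51A. Total RNA was far tighter, at 39.1, 39.9, 41.6 and 40.9 CPM with vehicle and 79.2, 72.5, 83.3 and 74.5 CPM with bortezomib in S51, against 47.1, 47.3, 49.1 and 46.4 CPM with vehicle and 80.3, 75.7, 78.8 and 72.8 CPM with bortezomib in S51A. It rose by 0.94 ± 0.05 (SE, adjusted p = 1.79e-14) in S51 and 0.70 ± 0.05 (SE, adjusted p = 4.78e-12) in S51A on the log2 scale, again with no overlap. Without S51A bortezomib replicate 1 the RPF rise in S51A was 0.58 (adjusted p = 0.0491), under the fold threshold. With scaling by library size alone the total RNA rise in S51A was 0.58, also under that threshold.

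Fbxo34, a receptor with few assigned substrates, was 7.44, 6.29 and 7.72 CPM with vehicle and 9.46, 19.1, 22.3 and 14 CPM with bortezomib in S51, against 7.94, 10.8, 12 and 6.69 CPM with vehicle and 18.7, 20.5, 14.6 and 16.6 CPM with bortezomib in S51A in RPF. In both genotypes every bortezomib library exceeded every vehicle library, and the RPF rise was 1.20 ± 0.28 (SE, adjusted p = 0.00233) in S51 and 0.93 ± 0.23 (SE, adjusted p = 0.00498) in S51A. Its total RNA was 11, 10.4, 11.9 and 11.5 CPM with vehicle and 22.2, 20.7, 21.4 and 20.7 CPM with bortezomib in S51, against 15.6, 12.9, 12.9 and 12.1 CPM with vehicle and 24.1, 21.7, 23.3 and 23.2 CPM with bortezomib in S51A. That is a rise of 0.92 ± 0.07 (SE, adjusted p = 9.76e-11) in S51 and 0.79 ± 0.07 (SE, adjusted p = 1.29e-09) in S51A.

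Fbxw9, a WD40-repeat receptor, was 28.7, 30 and 23.4 CPM with vehicle and 41.5, 41.1, 45 and 45.9 CPM with bortezomib in S51, against 25.7, 31.5, 37.4 and 30.2 CPM with vehicle and 49.3, 52.1, 63.5 and 50.3 CPM with bortezomib in S51A in RPF. It rose without overlap, by 0.69 ± 0.15 (SE, adjusted p = 0.00139) in S51 and 0.78 ± 0.13 (SE, adjusted p = 0.000113) in S51A. Total RNA of Fbxw9 was 27.2, 25.3, 24.3 and 23.4 CPM with vehicle and 44, 47.7, 46.6 and 47.3 CPM with bortezomib in S51, against 29.9, 29.7, 34 and 28.8 CPM with vehicle and 60.7, 61.2, 58.8 and 62.5 CPM with bortezomib in S51A, with rises of 0.89 ± 0.06 (SE, adjusted p = 1.11e-12) in S51 and 0.99 ± 0.05 (SE, adjusted p = 9.79e-14) in S51A. Its exons share 217 of 1843 bases with A230103J11Rik on the opposite strand, and whether counting used strand is not given in the sources used here. The RPF rise in S51 fell to 0.55, under the fold threshold, without S51 vehicle replicate 3.

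Fbxo2, which encodes a receptor for N-glycans of misfolded glycoproteins, rose from a very low level. Its total RNA was 0.755, 0.557, 0.734 and 0.544 CPM with vehicle and 1.51, 1.21, 1.55 and 1.43 CPM with bortezomib in S51, against 0.73, 0.692, 0.802 and 0.35 CPM with vehicle and 2.03, 2.03, 1.97 and 1.44 CPM with bortezomib in S51A, without overlap, and the change was 1.14 ± 0.23 (SE, adjusted p = 0.000173) in S51 and 1.54 ± 0.22 (SE, adjusted p = 2.37e-06) in S51A. In RPF it was 0.709, 2.42 and 1.49 CPM with vehicle and 4.37, 1.91, 1.14 and 4.48 CPM with bortezomib in S51, against 0.934, 1.69, 0.83 and 1.42 CPM with vehicle and 5.16, 4.87, 3.64 and 4.26 CPM with bortezomib in S51A, which rests on 2 to 16 counts per library. The RPF rise was called in S51A (1.74 ± 0.40 SE, adjusted p = 0.00297), and in S51 the value was 0.92 ± 0.52 (SE, adjusted p = 0.191). The response of Fbxo2 RPFs was not shown to differ between the genotypes (difference 0.82 ± 0.68 SE, adjusted p = 0.586). Of the other glycoprotein receptors, Fbxo44 rose in total RNA of S51A (0.61 ± 0.19 SE, adjusted p = 0.00746) from 1.87, 1.43, 1.5 and 1.45 to 1.79, 2.69, 3.11 and 2.02 CPM, with overlapping groups, and lost the call without S51A vehicle replicate 2 or 4 or S51A bortezomib replicate 2 or 3 (0.47 to 0.57). Fbxo6 was tested in both kinds of library and was called in neither, with total RNA log2 fold changes of 0.04 ± 0.09 in S51 and -0.14 ± 0.08 in S51A.

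**Figure D2:**
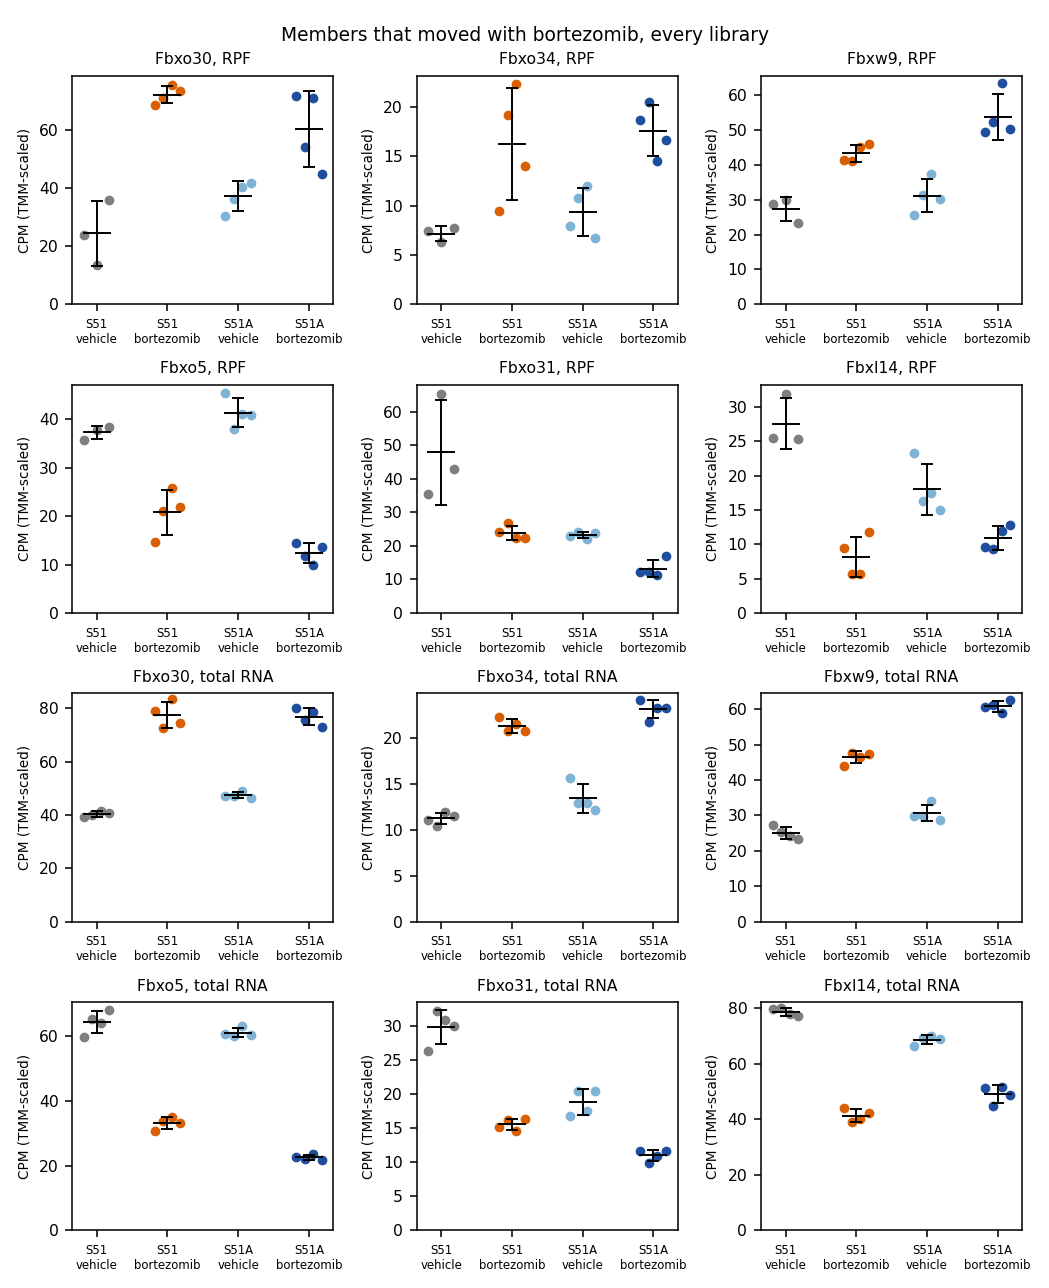
TMM-scaled CPM of single libraries (points) with group mean and SD (bars) for Fbxo30, Fbxo34, Fbxw9, Fbxo5, Fbxo31 and Fbxl14, RPF in the upper and total RNA in the lower rows, by group on the x axis. For Fbxo5 all bortezomib libraries lie below all vehicle libraries, at 9.88 to 25.7 against 35.8 to 45.3 RPF CPM.

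Fbxo5, Fbxo31 and Fbxl14 fell under bortezomib. Fbxo5 encodes EMI1, the inhibitor of the anaphase-promoting complex that holds this ligase off until mitosis. Its RPF level was 35.8, 37.7 and 38.3 CPM with vehicle and 14.6, 21, 25.7 and 21.9 CPM with bortezomib in S51, against 45.3, 38, 41.1 and 40.8 CPM with vehicle and 14.5, 11.7, 9.88 and 13.5 CPM with bortezomib in S51A. The vehicle libraries of both genotypes lay in 1 narrow band, and the bortezomib libraries lay below it, lowest in S51A. RPFs fell with log2 fold changes of -0.80 ± 0.16 (SE, adjusted p = 0.000773) in S51 and -1.70 ± 0.15 (SE, adjusted p = 4.58e-08) in S51A. Total RNA of Fbxo5 was 59.9, 65.4, 64.2 and 68.3 CPM with vehicle and 30.7, 33.9, 35.1 and 33.1 CPM with bortezomib in S51, against 60.8, 60.3, 63.1 and 60.5 CPM with vehicle and 22.8, 22.1, 23.8 and 21.7 CPM with bortezomib in S51A, a fall with log2 fold changes of -0.96 ± 0.05 (SE, adjusted p = 2.98e-14) in S51 and -1.44 ± 0.05 (SE, adjusted p = 3.87e-17) in S51A, with no overlap in either.

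Fbxo31 encodes a receptor for cyclin D1 that is active after DNA damage. In RPF it was 35.4, 65.3 and 42.8 CPM with vehicle and 24, 26.8, 22.3 and 22.4 CPM with bortezomib in S51, against 22.9, 24.1, 22 and 23.7 CPM with vehicle and 12.2, 12.2, 11.4 and 17 CPM with bortezomib in S51A. In total RNA it was 26.4, 32.2, 31 and 30 CPM with vehicle and 15.2, 16.2, 14.7 and 16.4 CPM with bortezomib in S51, against 16.8, 20.5, 17.6 and 20.5 CPM with vehicle and 11.6, 9.89, 10.9 and 11.7 CPM with bortezomib in S51A. In both kinds of library it was lower with bortezomib than with vehicle and lower in S51A than in S51 under vehicle, without overlap. The bortezomib changes were -0.996 ± 0.19 (SE, adjusted p = 0.000339) in RPF and -0.94 ± 0.08 (SE, adjusted p = 1.4e-10) in total RNA of S51. In S51A they were -0.80 ± 0.19 (SE, adjusted p = 0.00394) and -0.77 ± 0.08 (SE, adjusted p = 2.4e-08).

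Fbxl14 encodes the receptor of Snail-family transcription factors. Its RPF level was 25.5, 31.9 and 25.4 CPM with vehicle and 9.46, 5.74, 5.67 and 11.8 CPM with bortezomib in S51, against 23.4, 16.3, 17.4 and 15 CPM with vehicle and 9.66, 9.26, 12 and 12.8 CPM with bortezomib in S51A. RPFs fell with a log2 fold change of -1.75 ± 0.24 (SE, adjusted p = 8.73e-06) in S51, the lowest of the tested members in that comparison, and of -0.68 ± 0.21 (SE, adjusted p = 0.0208) in S51A. Total RNA was 79.8, 79.9, 77.7 and 77 CPM with vehicle and 44, 38.9, 40 and 42.3 CPM with bortezomib in S51, against 66.3, 69.2, 70 and 69 CPM with vehicle and 51, 44.6, 51.7 and 48.7 CPM with bortezomib in S51A. It fell with -0.93 ± 0.05 (SE, adjusted p = 2.74e-14) in S51, and in S51A the value was -0.49 ± 0.05 (SE, adjusted p = 4.06e-09), below the fold threshold. Groups did not overlap in any of these comparisons. The RPF call in S51A was lost without S51A vehicle replicate 1 or S51A bortezomib replicate 1 or 2 (-0.62 to -0.56, adjusted p up to 0.0712).

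Promoter sequences of 5 members that moved are shown so that the letters can be set beside the changes: Fbxo30 and Fbxo34, which rose, Fbxo5 and Fbxl14, which fell, and Fbxo48, which fell in total RNA and holds matches to 3 of the motifs searched. Windows run from 250 bases before to 50 bases after a transcript start listed by RefSeq in build GRCm38.p6, 5′ to 3′ on the gene's own strand, so that base 251 is that start. For Fbxo30, Fbxo34 and Fbxo48 the annotated gene begins further upstream, and for Fbxo48 the first of 2 windows is shown. Capitals mark motif matches.
Fbxo30 promoter, chr10:11281337-11281636, + strand: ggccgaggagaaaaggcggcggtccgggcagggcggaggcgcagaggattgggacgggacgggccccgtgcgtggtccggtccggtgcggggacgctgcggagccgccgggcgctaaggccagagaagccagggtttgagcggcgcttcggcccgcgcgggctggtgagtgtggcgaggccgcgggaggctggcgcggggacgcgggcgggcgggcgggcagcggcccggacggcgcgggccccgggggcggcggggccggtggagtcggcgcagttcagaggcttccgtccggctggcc
Fbxo34 promoter, chr14:47472311-47472610, + strand: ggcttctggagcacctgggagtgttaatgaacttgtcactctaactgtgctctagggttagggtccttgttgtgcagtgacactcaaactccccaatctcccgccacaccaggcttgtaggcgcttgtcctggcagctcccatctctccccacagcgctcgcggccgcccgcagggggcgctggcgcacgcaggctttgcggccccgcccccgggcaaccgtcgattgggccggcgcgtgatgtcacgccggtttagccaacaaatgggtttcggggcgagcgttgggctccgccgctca
Fbxo5 promoter, chr10:5805416-5805715, − strand: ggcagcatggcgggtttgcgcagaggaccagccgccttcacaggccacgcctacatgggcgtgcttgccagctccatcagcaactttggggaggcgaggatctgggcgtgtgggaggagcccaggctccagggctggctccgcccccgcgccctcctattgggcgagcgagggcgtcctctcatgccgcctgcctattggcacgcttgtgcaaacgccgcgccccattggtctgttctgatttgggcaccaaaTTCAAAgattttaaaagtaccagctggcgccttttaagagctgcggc
Fbxl14 promoter, chr6:119479418-119479717, + strand: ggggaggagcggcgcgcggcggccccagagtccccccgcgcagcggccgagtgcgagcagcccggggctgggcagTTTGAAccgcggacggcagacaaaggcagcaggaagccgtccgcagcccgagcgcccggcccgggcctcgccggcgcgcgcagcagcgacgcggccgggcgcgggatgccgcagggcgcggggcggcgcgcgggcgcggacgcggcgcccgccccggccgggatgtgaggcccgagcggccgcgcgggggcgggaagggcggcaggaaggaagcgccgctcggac
Fbxo48 promoter, chr11:16951125-16951424, + strand: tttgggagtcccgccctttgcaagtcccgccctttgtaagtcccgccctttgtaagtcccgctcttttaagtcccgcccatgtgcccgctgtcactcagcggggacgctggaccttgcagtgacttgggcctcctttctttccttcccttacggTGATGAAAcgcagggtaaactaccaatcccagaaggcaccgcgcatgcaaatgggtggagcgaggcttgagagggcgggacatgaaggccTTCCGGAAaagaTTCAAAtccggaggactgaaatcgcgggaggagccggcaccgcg

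Searched on both strands were the heat shock element as GAANNTTC and TTCNNGAA, the C/EBP-ATF composite element as TGATGNAA, the antioxidant response element as TGACNNNGC and the cell cycle homology region as TTTGAA. The Fbxo30 and Fbxo34 windows held none of them. Fbxl14 held TTTGAA 175 bases before its start, and Fbxo5 held it on the opposite strand just after its start. The window of Fbxo48 held TGATGNAA, TTCNNGAA and TTTGAA, the last on the opposite strand. Among the 57 members with a window, TTTGAA occurred in 8 (Fbxl14, Fbxl19, Fbxo17, Fbxo48, Fbxo5, Fbxo8, Fbxo9 and Fbxw5), and it occurs in 20.2% of all 27025 genes with a window. A gene counts where any of its windows matches. TTCNNGAA occurred in 4 members (Fbxl16, Fbxo48, Fbxw10 and Fbxw7, beside 9.6% of all genes), GAANNTTC in 2 (Fbxo36 and Fbxo46, beside 9.04%) and TGATGNAA in 2 (Fbxo48 and Fbxw19, beside 4.51%). TGACNNNGC was found in 8 members, Fbxo31 among them, and in 14% of all genes with a window. A match describes the letters only.

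Further members fell in RPFs of S51 cells without a called change in total RNA. Fbxl18 (-0.97 ± 0.29 SE, adjusted p = 0.0156), Fbxo45 (-0.86 ± 0.28 SE, adjusted p = 0.0233), a receptor known from synapse formation, and Fbxw5 (-0.76 ± 0.25 SE, adjusted p = 0.0287), a regulator of centriole duplication, fell in S51. None of them was called for RPF over total RNA in S51, or for a difference between the genotypes' RPF responses. In S51A, where none was called, their mean RPF CPM per kilobase also went down with bortezomib. Fbxl18 went from 7.215 to 4.76, Fbxo45 from 12.4 to 11.1 and Fbxw5 from 8.52 to 6.18. A fall limited to RPFs or to S51 was thus not shown. Fbxw5 was 15.2, 14 and 15.9 CPM in S51 vehicle and 12.4, 6.7, 7.57 and 9.52 in S51 bortezomib. Its total RNA log2 fold change in S51 was -0.58 ± 0.06 (SE, adjusted p = 3.89e-08), just under the fold threshold. The calls of Fbxl18 and Fbxo45 were each lost without S51 vehicle replicate 2 (-0.60, adjusted p = 0.0936, and -0.67, adjusted p = 0.0853), S51 bortezomib replicate 1 (-0.83, adjusted p = 0.051, and -0.76, adjusted p = 0.0646) or S51 bortezomib replicate 3 (-0.90, adjusted p = 0.0603, and -0.68, adjusted p = 0.116). The call of Fbxw5 was lost without S51 vehicle replicate 1 or 3 or S51 bortezomib replicate 2 or 3 (-0.75 to -0.64, adjusted p up to 0.115). S51 vehicle replicate 2 was also the highest of its group for Fbxo31 and Fbxl6 RPFs and the lowest for Fbxo30. Without it 8 members were called in RPFs of S51 in place of 12, with the share of all genes not counted.

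In total RNA, members of low abundance changed that were not tested in RPF, most of them for too few RPF counts and Fbxl12os because it has no coding sequence. Fbxo32, the muscle atrophy receptor known as atrogin-1, was 3.27, 3.29, 4.41 and 4.18 CPM with vehicle and 2.07, 1.78, 1.75 and 1.69 CPM with bortezomib in S51, against 2.28, 1.85, 1.66 and 1.49 CPM with vehicle and 0.844, 0.989, 0.983 and 0.673 CPM with bortezomib in S51A. It fell without overlap, with log2 fold changes of -1.06 ± 0.16 (SE, adjusted p = 2.98e-06) in S51 and -1.06 ± 0.21 (SE, adjusted p = 0.000118) in S51A. Fbxo32 and Fbxo30, both known from muscle wasting, thus moved in opposite directions. Fbxo48 fell in both genotypes, with -0.91 ± 0.17 (SE, adjusted p = 5.38e-05) in S51 and -0.86 ± 0.15 (SE, adjusted p = 4.29e-05) in S51A, from 2.77, 3.81, 3.95 and 3.22 to 2.22, 1.4, 2.09 and 1.64 CPM in S51. Fbxo15, a gene known from embryonic stem cells, fell with -0.94 ± 0.36 (SE, adjusted p = 0.0279) in S51 and -0.92 ± 0.38 (SE, adjusted p = 0.0411) in S51A, at no more than 0.654 CPM in any library. Fbxw4 (-0.60 ± 0.14 SE, adjusted p = 0.000766) and Fbxl12os (-0.72 ± 0.27 SE, adjusted p = 0.0237) fell in S51, and Fbxo10, a receptor of the survival factor BCL2, in S51A (-0.75 ± 0.21 SE, adjusted p = 0.00443). For Fbxw4 and Fbxl12os the S51A values were -0.55 ± 0.16 and -0.39 ± 0.24, and for Fbxo10 the S51 value was -0.16 ± 0.19. The call of Fbxw4 was lost without S51 vehicle replicate 2 (-0.53) or S51 bortezomib replicate 2 (-0.51), and that of Fbxl12os without either of them or S51 bortezomib replicate 1 (adjusted p up to 0.0874). The calls of Fbxo15 were lost without S51 vehicle replicate 1, 3 or 4 or S51 bortezomib replicate 2 or 3 in S51 (adjusted p up to 0.106), and without any vehicle library or bortezomib replicate 1 or 2 in S51A (adjusted p up to 0.163). Fbxl12os shares 661 of its 2355 exon bases with a gene on the opposite strand. DESeq2 called neither Fbxl12os (adjusted p = 0.0751) nor Fbxo15 (adjusted p = 0.0689 in S51 and 0.0899 in S51A).

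Called in both genotypes, which share no library, were members of each series. In RPF, 6 members (Fbxl14, Fbxo30, Fbxo31, Fbxo34, Fbxo5 and Fbxw9) were called in the same direction in S51 and S51A, 50% of the 12 in S51 and 85.7% of the 7 in S51A. Over all genes those shares were 36.4% and 62.3%. In total RNA 9 members were shared, 75.0% of 12 and 81.8% of 11, against 59.5% and 69.4% over all genes. Of 40 members tested in both kinds of library, 6 (15%) were called in both in the same direction in each genotype, against 8.14% of 9424 genes in S51 and 7.85% in S51A. In the plot of one genotype's response against the other's, Fbxw9, Fbxo34 and Fbxo31 lie near the diagonal, while Fbxl14 and Fbxo5 lie off it in RPF on opposite sides.

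**Figure D3:**
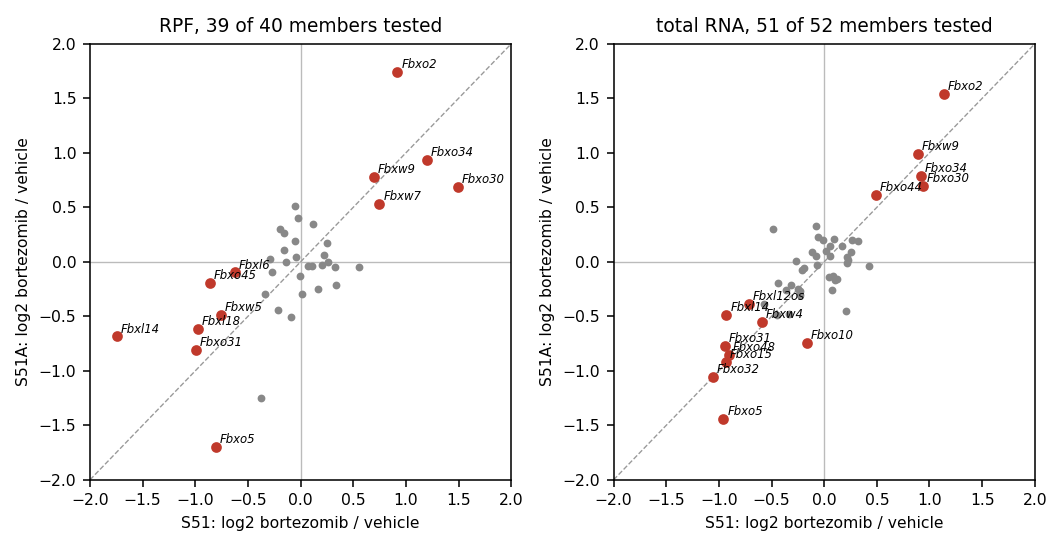
Log2 fold change with bortezomib in S51 (x axis) against that in S51A (y axis) for the tested members but 1, RPF on the left and total RNA on the right, with the diagonal dashed and members called in either genotype in red with names. Fbxo5 lies lowest on the y axis in both panels, at -1.70 in RPF and -1.44 in total RNA.

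Differences between the genotypes' responses were few. In RPF 1 of 40 members was called (2.50%), where 1.86% of all genes were, and in total RNA 1 of 52 (1.92%), where 2.09% were. The RPF call was Fbxo5, whose fall was larger in S51A (difference -0.89 ± 0.23 SE, adjusted p = 0.0391). With the replicate number as a block it was -0.88 (adjusted p = 0.0594) and not called. Its total RNA difference was -0.48 ± 0.07 (SE, adjusted p = 4.5e-05), in the same direction and under the fold threshold. With all libraries but 1, the RPF difference of Fbxo5 ran from -1.02 to -0.74, and its call was lost in 11 of 15 such fits (adjusted p up to 0.153). The total RNA call was Fbxl20, known for its part in synaptic vesicle release, with a difference of -0.66 ± 0.22 (SE, adjusted p = 0.0301). Fbxl20 was 2.42, 3.02, 2.2 and 2.72 CPM with vehicle and 2.82, 3.23, 2.33 and 3.63 CPM with bortezomib in S51, against 3.24, 3.37, 2.86 and 2.89 CPM with vehicle and 2.08, 2.21, 2.02 and 2.69 CPM with bortezomib in S51A, with 0.21 ± 0.15 in S51 and -0.45 ± 0.15 in S51A, neither called, and the call on the difference was lost in 8 of 16 fits that left out 1 library. In all 11 of 52 members had an adjusted p under 0.05 for the total RNA difference (21.2%, against 21.6% of all genes). Among them were Fbxl14 (0.44 ± 0.07 SE, adjusted p = 5.38e-05), which fell less in S51A, and Fbxo33 (0.41 ± 0.09 SE, adjusted p = 0.00229). For Fbxl14 RPFs the difference was 1.06 ± 0.32 (SE, adjusted p = 0.0838) and for Fbxo30 RPFs -0.81 ± 0.28 (SE, adjusted p = 0.148), and neither passed the test.

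Translation efficiency (TE), the RPF change beyond that of total RNA, was tested in 1 model over all 31 libraries. In S51 cells bortezomib changed 3 of 40 members (7.50%), against 5.27% of 9424 genes. TE of Fbxw7, the receptor of cyclin E, MYC and NOTCH, rose by 0.71 ± 0.22 (SE, adjusted p = 0.034). Its RPFs were 9.56, 6.77 and 8.46 CPM with vehicle and 10.9, 12.4, 15.9 and 15.7 CPM with bortezomib in S51, against 4.21, 8.03, 5.81 and 5.07 CPM with vehicle and 7.73, 6.33, 13.5 and 7.74 CPM with bortezomib in S51A. Its total RNA was 42.4, 43.5, 40.6 and 42.9 CPM with vehicle and 43.4, 45.2, 42.7 and 44.6 CPM with bortezomib in S51, against 36, 40.4, 37.2 and 40.5 CPM with vehicle and 43.8, 40.8, 43.6 and 42.9 CPM with bortezomib in S51A. RPFs were thus higher in all S51 bortezomib libraries than in S51 vehicle (0.75 ± 0.27 SE, adjusted p = 0.0383), whereas the total RNA change was 0.05 ± 0.05 (SE, adjusted p = 0.343). The ratio of RPF to total RNA CPM in the same sample was 0.225, 0.156 and 0.208 with vehicle and 0.252, 0.275, 0.372 and 0.352 with bortezomib in S51, against 0.117, 0.199, 0.156 and 0.125 with vehicle and 0.177, 0.155, 0.31 and 0.18 with bortezomib in S51A. With the lysate that an RPF and a total RNA library share as a block, the TE change was 0.70 (adjusted p = 0.0995). Both the RPF and the TE call were lost without RPF library 2 or 3 of S51 vehicle or 3 or 4 of S51 bortezomib (RPF adjusted p up to 0.131, TE up to 0.161). TE of Fbxw7 in S51A was 0.39 ± 0.22 (SE, adjusted p = 0.877), and the difference between the responses was not called (-0.32 ± 0.31 SE, adjusted p = 0.75).

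TE of Fbxl6 and Fbxl14 fell in S51. For Fbxl6 the change was -0.74 ± 0.16 (SE, adjusted p = 0.00171), with ratios of 2.81, 4.69 and 2.88 with vehicle and 2.45, 2.24, 1.8 and 1.74 with bortezomib in S51, against 2.54, 2.49, 2.44 and 2.23 with vehicle and 2.65, 2.17, 2.42 and 2.84 with bortezomib in S51A. RPFs of Fbxl6 were 62.4, 109 and 71.7 CPM in S51 vehicle and 59, 57.4, 45.8 and 48.7 in S51 bortezomib, a change of -0.62 ± 0.16 (SE, adjusted p = 0.00494), while its total RNA change was 0.12 ± 0.06 (SE, adjusted p = 0.0799). Without S51 vehicle replicate 2, which had the highest ratio, the RPF change was -0.39 and the TE change -0.50, neither called. The RPF call was also lost without S51 bortezomib replicate 3 (-0.55). Fbxl6 was the member called for a difference in TE response between the genotypes (0.85 ± 0.22 SE, adjusted p = 0.0358), 1 of 40 (2.50%) where 1.47% of all genes were called. That call was lost in 11 of 31 fits without 1 library and with the lysate as a block (0.83, adjusted p = 0.12). For Fbxl14, TE changed by -0.82 ± 0.22 (SE, adjusted p = 0.012), with ratios of 0.32, 0.4 and 0.327 with vehicle and 0.215, 0.148, 0.142 and 0.278 with bortezomib in S51, against 0.352, 0.235, 0.249 and 0.217 with vehicle and 0.189, 0.207, 0.231 and 0.262 with bortezomib in S51A, and without RPF S51 bortezomib replicate 3 the value was -0.58 (adjusted p = 0.157).

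In S51A cells edgeR called 0 of 40 members for TE under bortezomib, as did DESeq2, with 1 member at an unadjusted p under 0.05, and 0.923% of all genes were called. For S51A against S51 under vehicle both tools again called 0 members, with 4 at an unadjusted p under 0.05, where 0.0849% of genes were called. Under bortezomib S51A was below S51 for 2 of 40 members (5%, against 3.13% of genes), Fbxw7 (-0.68 ± 0.21 SE, adjusted p = 0.047) and Fbxw17 (-2.07 ± 0.48 SE, adjusted p = 0.00448). Fbxw17, of the mouse Fbxw expansion, rests on few RPF counts, 1 to 7 per library in S51A bortezomib and 4 to 8 in S51 bortezomib. Its RPF level was 4.25, 4.35 and 5.97 CPM with vehicle and 5.82, 3.83, 3.03 and 3.36 CPM with bortezomib in S51, against 3.27, 2.11, 4.57 and 2.84 CPM with vehicle and 2.25, 0.975, 1.04 and 0.387 CPM with bortezomib in S51A. Its total RNA was 3.98, 4.41, 4.04 and 3.77 CPM with vehicle and 2.27, 3.28, 3.35 and 3.02 CPM with bortezomib in S51, against 4.38, 4.15, 4.97 and 5.3 CPM with vehicle and 4.22, 3.77, 4.7 and 3.85 CPM with bortezomib in S51A. The RPF levels of the S51 and S51A bortezomib libraries did not overlap. The call for Fbxw7 was lost in 21 of 31 fits that left out 1 library, with adjusted p-values up to 0.205, and with the lysate as a block (adjusted p = 0.111).

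**Figure D4:**
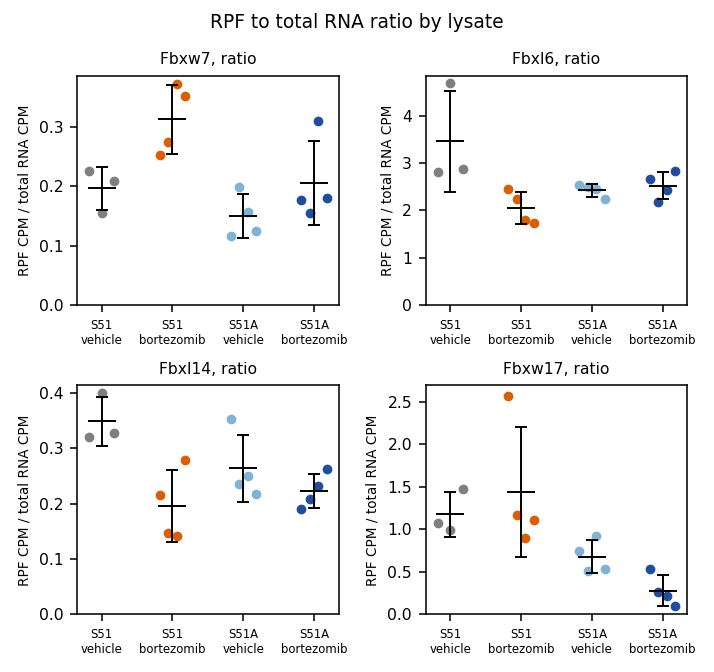
Ratio of RPF CPM to total RNA CPM in single samples (points) with group mean and SD (bars) for the 4 members called in a TE comparison, by group on the x axis. Fbxw7 runs from 0.252 to 0.372 in S51 bortezomib and from 0.156 to 0.225 in S51 vehicle.

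Leader length and upstream ATGs were read for the tested members, since start codons in the leader can hold ribosomes back from the main one. In 39 of 40 members with an annotated leader the median length was 127 nucleotides and 43.6% held an ATG, where over 9032 genes the median was 170 nucleotides and 49.1% held one. Fbxw7 has a leader of 683 nucleotides with 1 upstream ATG. Fbxl14 (192 nucleotides), Fbxl6 (19) and Fbxw17 (34) have none. Fbxo6, with 5 in 850 nucleotides, and Fbxl4, with 4 in 319, had TE changes in S51 of -0.01 ± 0.18 and 0.39 ± 0.30, neither called.

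The comparison of S51A with S51 asks which receptors differed with the ISR-null transgene, within the limit that clones differ too. It shares its libraries with the bortezomib comparisons above. In RPF under vehicle 1 of 40 members was higher in S51A (2.50%) and 3 lower (7.50%), where 9.19% of all genes were higher and 6.62% lower. With bortezomib 1 was higher (2.50%) and 4 lower (10%), against 10% and 7.66% of all genes. In total RNA under vehicle 2 of 52 were higher (3.85%) and 3 lower (5.77%), with 11.2% and 6.29% among all genes. With bortezomib 3 were higher (5.77%) and 2 lower (3.85%), with 11.7% and 8.23%.

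Fbxo33, whose product targets the RNA-binding protein YB-1, was higher in S51A in all 4 of these comparisons. Its RPFs were 12.4, 11.6 and 8.71 CPM with vehicle and 5.09, 5.74, 10.6 and 13.4 CPM with bortezomib in S51, against 24.3, 16.3, 18.3 and 18.5 CPM with vehicle and 19.6, 23.4, 26 and 25.1 CPM with bortezomib in S51A. Its total RNA was 13.2, 15.2, 14.9 and 15.2 CPM with vehicle and 13.9, 14.3, 14.1 and 12.9 CPM with bortezomib in S51, against 34.3, 31.1, 31.9 and 29.9 CPM with vehicle and 41.6, 36.4, 41.7 and 40.2 CPM with bortezomib in S51A, so that every S51A library lay above every S51 library in both kinds. S51A over S51 was 0.82 ± 0.23 (SE, adjusted p = 0.00901) under vehicle and 1.32 ± 0.24 (SE, adjusted p = 0.000211) with bortezomib in RPF. Without S51 vehicle replicate 3 the RPF value under vehicle was 0.61 (adjusted p = 0.0734). In total RNA it was 1.12 ± 0.06 (SE, adjusted p = 2.26e-13) and 1.53 ± 0.06 (SE, adjusted p = 6.04e-16). Bortezomib itself changed Fbxo33 total RNA by -0.08 ± 0.07 (SE, adjusted p = 0.329) in S51 and 0.33 ± 0.06 (SE, adjusted p = 3.77e-05) in S51A.

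Fbxw10 total RNA was also higher in S51A, at 1.81, 2.23, 2.25 and 2.39 CPM with vehicle and 2.57, 2.12, 2.62 and 2.05 CPM with bortezomib in S51, against 5.98, 3.83, 5.42 and 4.51 CPM with vehicle and 5.26, 4.29, 5.57 and 2.5 CPM with bortezomib in S51A, with 1.18 ± 0.19 (SE, adjusted p = 1.1e-05) under vehicle and 0.90 ± 0.20 (SE, adjusted p = 0.000341) with bortezomib, where the groups overlapped. Fbxl19, which binds unmethylated CpG through a CXXC domain, was higher in total RNA with bortezomib (0.71 ± 0.05 SE, adjusted p = 4.07e-11). Its levels were 41.9, 39.3, 39.4 and 40.7 CPM with vehicle and 40.1, 41.5, 35.6 and 37.9 CPM with bortezomib in S51, against 50.6, 58.9, 52.8 and 53.9 CPM with vehicle and 60.9, 68.5, 63.4 and 61 CPM with bortezomib in S51A, and under vehicle the difference was 0.42 ± 0.05 (SE, adjusted p = 3.13e-07), under the fold threshold.

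Lower in S51A were Fbxo31, Fbxo32 and several members in a single comparison. Fbxo31, whose levels are given above, had an S51A over S51 log2 fold change of -1.01 ± 0.17 (SE, adjusted p = 0.000132) under vehicle in RPF. With bortezomib the RPF value was -0.82 ± 0.21 (SE, adjusted p = 0.00458). In total RNA the values were -0.66 ± 0.07 (SE, adjusted p = 2.96e-08) and -0.50 ± 0.09 (SE, adjusted p = 1.74e-05), the second under the fold threshold. For Fbxo32 total RNA the log2 fold change was -1.06 ± 0.16 (SE, adjusted p = 2.24e-06) under vehicle and -1.06 ± 0.21 (SE, adjusted p = 9.62e-05) with bortezomib, so that its S51A bortezomib libraries, at 0.844, 0.989, 0.983 and 0.673 CPM, were the lowest of all. Fbxl14 (-0.64 ± 0.19 SE, adjusted p = 0.0147) and Fbxl6 (-0.60 ± 0.15 SE, adjusted p = 0.00449) were lower in RPFs under vehicle, and neither was called without S51 vehicle replicate 2 (-0.55 and -0.36) or without S51A vehicle replicate 4 (-0.55 and -0.55). Without S51A vehicle replicate 2 the Fbxl14 value was -0.59 (adjusted p = 0.0512). With bortezomib RPFs of Fbxo5 (-0.76 ± 0.18 SE, adjusted p = 0.00284), Fbxw7 (-0.70 ± 0.26 SE, adjusted p = 0.0407) and Fbxw17 (-1.60 ± 0.48 SE, adjusted p = 0.0145) were lower, Fbxw7 with overlapping groups and without a call by DESeq2 (adjusted p = 0.052). The RPF call of Fbxw7 was lost without S51 bortezomib replicate 3 or 4 or S51A bortezomib replicate 1, 2 or 4 (adjusted p up to 0.142), and that of Fbxw17 without S51 bortezomib replicate 1 or S51A bortezomib replicate 4 (adjusted p up to 0.0517). Fbxl22, a sarcomere protein of the heart, was lower in total RNA under vehicle (-0.83 ± 0.33 SE, adjusted p = 0.0341) at no more than 0.643 CPM, with overlapping groups, no RPF count and no call by DESeq2 (adjusted p = 0.0906). Fbxo10 was lower with bortezomib (-0.64 ± 0.22 SE, adjusted p = 0.0123), and lost the call without S51 bortezomib replicate 2 (-0.46, adjusted p = 0.08), in which it stood above the rest of its group, or S51A bortezomib replicate 3 (-0.55). The call of Fbxl22 was lost without S51 vehicle replicate 1, 3 or 4 or S51A vehicle replicate 1, 2 or 4 (adjusted p up to 0.0914). Fbxl22 shares 317 of its 3935 exon bases with Herc1 on the opposite strand.

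**Figure D5:**
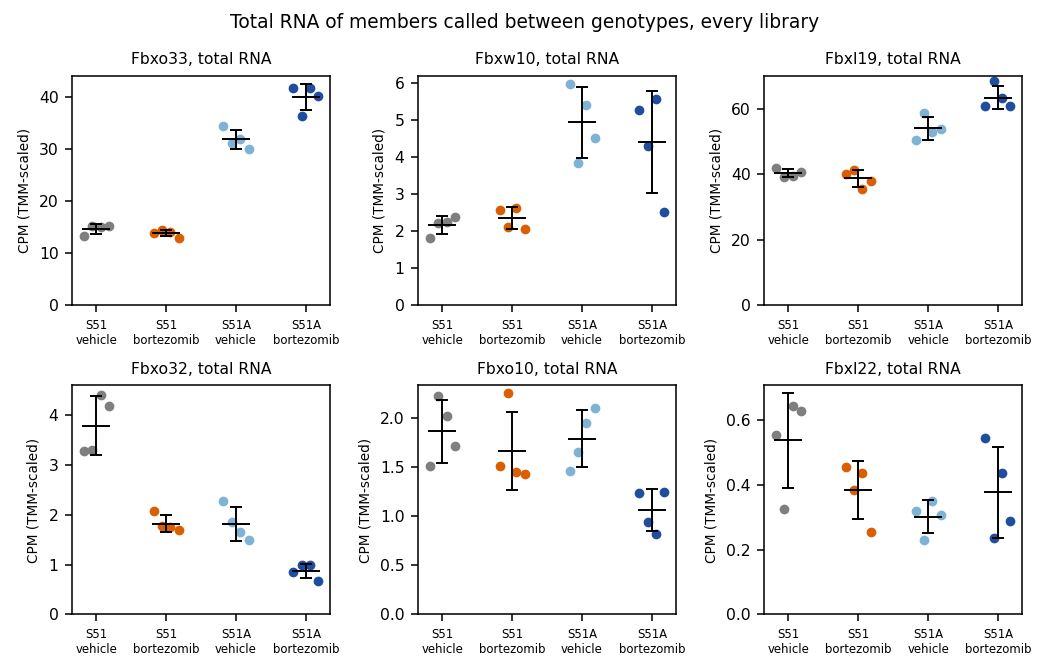
TMM-scaled total RNA CPM of single libraries (points) with group mean and SD (bars) for 6 members called between S51A and S51, by group on the x axis. Fbxo33 total RNA lies at 29.9 to 41.7 CPM in S51A and at 12.9 to 15.2 CPM in S51.

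Several well-studied receptors kept within 1.5-fold in every comparison. Fbxl5, the iron-sensing receptor of iron regulatory proteins, was 83.2, 86, 83 and 88.3 CPM with vehicle and 63.8, 67.9, 68.7 and 69.4 CPM with bortezomib in S51, against 89.4, 98.3, 93.7 and 97.9 CPM with vehicle and 65.7, 68.6, 68.5 and 69.1 CPM with bortezomib in S51A in total RNA. Bortezomib lowered it in both genotypes by less than the fold threshold (-0.34 ± 0.04 SE, adjusted p = 1.16e-07 in S51 and -0.48 ± 0.04 SE, adjusted p = 3.14e-10 in S51A). Fbxw11 total RNA rose a little (0.26 ± 0.04 SE, adjusted p = 6.09e-06 in S51 and 0.20 ± 0.04 SE, adjusted p = 0.00017 in S51A). Fbxo7, known from parkinsonism and from its contact with the proteasome inhibitor PI31, had 0.25 ± 0.07 (SE, adjusted p = 0.00214) in S51 and 0.09 ± 0.07 (SE, adjusted p = 0.269) in S51A, and 3128 of its 7088 exon bases are shared with Syn3 on the opposite strand. Fbxl4, a mitochondrial member, had total RNA changes of -0.23 ± 0.09 (SE, adjusted p = 0.0384) in S51 and -0.31 ± 0.10 (SE, adjusted p = 0.0121) in S51A. Fbxl12, whose product targets inhibitors of cyclin-dependent kinases, had no adjusted p under 0.05 in any comparison, and 1981 of its 4665 exon bases are shared with Ubl5 on the opposite strand. The abundant Fbxw8 was 90, 124 and 102 CPM with vehicle and 88.8, 117, 89.3 and 112 CPM with bortezomib in S51, against 79, 81.5, 94.6 and 83.4 CPM with vehicle and 88.9, 105, 86.9 and 104 CPM with bortezomib in S51A in RPF, with bortezomib changes of -0.05 ± 0.13 in S51 and 0.19 ± 0.12 in S51A.

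By series, bortezomib in S51 called 3 Fbxl members lower of 11 in RPF, 2 Fbxo members higher and 3 lower of 22, and 2 Fbxw members higher and 1 lower of 7, where 7.38% of all genes were higher and 11.2% lower. In total RNA of S51A the calls were 4 Fbxo members higher and 6 lower of 28 and 1 Fbxw member (Fbxw9) higher of 9, with the 15 Fbxl members not called, where 4.54% of all genes were higher and 8.57% lower. Of 7 tested receptors of the cell cycle, Fbxo5 and Fbxo31 fell and Fbxw7 rose in RPFs of S51, the comparison with 7.38% and 11.2% of genes called. F-box genes with other names gave 2 calls of 7 in the same comparison: Kdm2a, a histone demethylase, rose (0.72 ± 0.10 SE, adjusted p = 6.41e-06), and Skp2, the receptor of the inhibitor CDKN1B, fell (-0.76 ± 0.16 SE, adjusted p = 0.00118). With bortezomib Skp2 RPFs were higher in S51A than in S51 (0.68 ± 0.16 SE, adjusted p = 0.00224), as was its TE (0.70 ± 0.17 SE, adjusted p = 0.00562).

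Of 17 tested genes of the SCF core, neddylation and exchange, Skp1, the adaptor that binds every F-box, was the one called in RPFs of S51 with bortezomib (0.83 ± 0.18 SE, adjusted p = 0.00132), with a TE rise of 0.59 ± 0.17 (SE, adjusted p = 0.0225). In that RPF comparison 7.38% of all genes were called higher and 11.2% lower. Cdc34, an E2 enzyme of SCF ligases, differed between the genotypes' RPF responses (0.75 ± 0.19 SE, adjusted p = 0.0391), where 1.86% of all genes were called. In total RNA of S51, 1 of 19 was called, Dcun1d3, a neddylation factor (0.62 ± 0.05 SE, adjusted p = 4.77e-11). Of all genes 5.70% were higher and 9.59% lower there. Between genotypes Cul7, the scaffold that works with Fbxw8, was higher in S51A (1.45 ± 0.22 SE, adjusted p = 2.82e-06 under vehicle), and Dcun1d1 lower (-0.75 ± 0.05 SE, adjusted p = 9.66e-13). Total RNA calls under vehicle were also Dcun1d3, higher, and Dcun1d5, lower. With bortezomib Ube2r2 was higher in total RNA, beside Cul7 higher and Dcun1d1 lower. RPFs of Dcun1d3 were higher in S51A under vehicle and with bortezomib, and those of Dcun1d4 with bortezomib. In total RNA 11.2% of all genes were higher and 6.29% lower under vehicle, and 11.7% and 8.23% with bortezomib. In RPF these shares were 9.19% and 6.62%, and 10% and 7.66%. Of the 10 subunits of the COP9 signalosome, which removes NEDD8 from cullins, Cops2 RPFs were higher in S51A under vehicle (0.62 ± 0.22 SE, adjusted p = 0.0389), the single call in 15 comparisons. In this one 9.19% of all genes were higher.

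Other families of the ubiquitin system were counted the same way. In total RNA of S51 with bortezomib, of 42 tested Usp deubiquitinases 1 was higher and 1 lower, of 33 Ube2 enzymes 1 was higher, and of 21 Klhl receptors of CUL3 ligases 2 were lower, beside the 4 higher and 8 lower of 52 F-box members and 5.70% higher and 9.59% lower of all genes. In RPFs of S51 the counts were 4 higher and 3 lower of 37 Usp genes, 1 and 2 of 32 Ube2 genes, and 3 and 0 of 15 Klhl genes, beside 5 and 7 of 40 members and 7.38% and 11.2% of all genes. Whether the families differ was not tested.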

How the data were processed

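The authors deposited raw read counts per gene, not normalized, as an RPF table and a total RNA table. Reads were aligned to mm10 with Bowtie2 according to the processing notes, which give no versions. RPFs of 20 to 23 or 26 to 32 nucleotides were counted in coding sequence without its first 15 and last 5 codons, after removal of rRNA, with repeats masked and a mapping quality of 50, which lowers counts of near-identical copies. Duplicates were marked, and the authors merged repeat runs of the same total RNA library. Per the study's methods, plastid defined leader, coding and trailer bins, and the processing notes also name featureCounts. Which bins make up the total RNA counts is not given in the sources used here. Columns were assigned by the note to the series on its exchanged titles (S51 bortezomib and S51A vehicle). Entrez identifiers matched a RefSeq symbol for 20687 of 20704 genes in RPF and 24569 of 24593 in total RNA.

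The counts were fitted with edgeR 4.0.16 and limma 3.58.1 in R 4.3.3, with TMM scaling, filterByExpr (10 counts, total of 15), glmQLFit over all 4 groups, glmQLFTest, Benjamini-Hochberg adjustment over all genes tested. SE is the absolute log2 fold change divided by the square root of F. No replicate pair was a repeated library (chi-square per gene at least 1.64 over 21 RPF pairs and 2.69 over 24 total RNA pairs, with the highest RPF values, 12.4 and 17.3, in the pairs with S51 vehicle replicate 2). Promoter windows are from RefSeq, leaders from the longest coding transcript of the GENCODE annotation. Scripts were tested on simulated data. Named were all members called in any of 15 comparisons, the 5 highest in RPF per coding kilobase, 10 well-studied members and the ends of ranges. Fbxo9, Fbxo34 and further pathway genes were named as range ends or calls, and Fbxw8 partner Cul7 by its list. 1 of the 26 members called is not reported here and is left out of the figures, but counts include it. Members and gene lists were chosen with earlier results of these data known. Alternatives were DESeq2 1.42.0, RLE factors, library sizes alone, other filters, only the groups compared, a replicate block (for TE a block of lysates), a fold of 2 for total RNA, and each library left out.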

Additional observations from a re-analysis of the deposited data

Results flagged for a closer look

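In 133 groups of 4 libraries, 9 member values stood apart from the other 3 of their group by Dixon's test, which chance gives in about 1 of 20 groups. Fbxo10 total RNA was 2.26 CPM in S51 bortezomib replicate 2, with the others at 1.43 to 1.51. Fbxo15 total RNA was 0.0942 CPM in S51A bortezomib replicate 2 (others 0.298 to 0.337), and Fbxo2 total RNA was 1.44 CPM in S51A bortezomib replicate 4 (others 1.97 to 2.03). Fbxo31 RPFs were 17.0 CPM in S51A bortezomib replicate 4 (others 11.4 to 12.2). Fbxo33 total RNA was 13.2 CPM in S51 vehicle replicate 1 (others 14.9 to 15.2). Fbxo44 total RNA was 1.87 CPM in S51A vehicle replicate 1 (others 1.43 to 1.5), and Fbxw4 total RNA was 4.13 CPM in S51 vehicle replicate 2 (others 3.42 to 3.49). The ratio of RPF to total RNA was 2.57 for Fbxw17 in S51 bortezomib replicate 1 (others 0.902 to 1.17) and 0.310 for Fbxw7 in S51A bortezomib replicate 3 (others 0.155 to 0.180).

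A difference in the response to bortezomib between S51A and S51 was called by the interaction term for Fbxo5 RPFs (log2 difference -0.89), Fbxl20 total RNA (-0.66) and Fbxl6 TE (0.85). Of all genes 1.86%, 2.09% and 1.47% were called in these comparisons. The calls were lost in 11 of 15, 8 of 16 and 11 of 31 fits that left out 1 library.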

How the results depend on the processing

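Over the 69 called values of members, 412 of 458 values under other settings kept their direction and their call, 46 lost the call and 0 changed sign. Settings under which a called member was not tested are left out of these numbers. TE of Fbxw17 had values under 4 settings and RPFs of Fbxo2 and Fbxw17 under 5, beside 7 for Fbxl6 TE in S51. The 412 thus overstates how firmly calls of members with few counts held. Of 1165 values with 1 library left out, 1046 kept the call, and 42 of the 69 lost it in none. The 1165 include fits without a library of a group not compared. Such fits touch a call only through shared spread, scaling and filter, so 1046 overstates how firmly calls held. Counts of called members moved by over 1.5 times as follows. Where each RPF library had to hold 10 counts or more, fewer genes and 26 members were tested. RPF counts were then 7 in S51 with bortezomib, beside 18.5% of all genes. For S51A against S51 they were 2 under vehicle (13.4% of all genes) and 2 with bortezomib (15.5%). TE counts were 1 in S51 with bortezomib (5.93%) and 0 for S51A against S51 with bortezomib (3.12%). With a fold above 2, total RNA counts of 52 members with bortezomib were 2 in S51 (4.99% of all genes) and 3 in S51A (4.18%). For S51A against S51 they were 3 under vehicle (7.87%) and 2 with bortezomib (8.28%). For the difference of responses the count was 0 (0.478%). With library sizes alone, TE counts of 40 members were 5 in S51 (6.72% of all genes) and 0 for the difference of responses (1.04%). For TE of S51A against S51 with bortezomib the count was 1 with DESeq2, without a filter, with only the groups compared and with the lysate as a block. The cause was not tested.

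With 1 library left out, RPF counts ran from 7 to 12 (S51 bortezomib), 6 to 9 (S51A bortezomib), 2 to 5 (vehicle), 3 to 6 (S51A against S51 with bortezomib) and 0 to 3 (difference). Total RNA counts ran from 10 to 12, 9 to 11, 4 to 5, 4 to 6 and 0 to 1, and TE counts from 1 to 3, 0 to 0, 0 to 3, 1 to 3 and 0 to 2, in the same order. RPF counts in S51 with bortezomib were 7 without S51 bortezomib replicate 3 and 8 without S51 vehicle replicate 2, and 2 for S51A against S51 under vehicle without the latter. Shares of all genes called in fits without 1 library were not counted, so these ranges do not set the members apart.

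Deviations of RPF libraries with the same replicate number correlated at -0.17 to 0.27 over 21 pairs (median 0.03, against -0.02 over 63 pairs of different number), which does not show pairing. In total RNA they correlated at 0.02 to 0.32 over 24 pairs (median 0.14, against -0.04 over 72 pairs). Every pair was over 0.1 between S51A vehicle and S51A bortezomib and between S51 and S51A bortezomib. The titles number the replicates but state no pairing, so pairing of these total RNA libraries was not established. With the replicate block 11 and 5 members were called in these comparisons, as without it, beside 13.2% and 20.1% of all genes. No total RNA call of a member was lost under the block. With the replicate block, the count was 0 for the RPF difference of responses (Fbxo5, -0.88, adjusted p = 0.0594 by edgeR), beside 2.04% of all genes. With the lysate as a block it was 0 for the TE difference, beside 0.775% of all genes. Under the replicate block Fbxl6 RPFs under vehicle (-0.58) and Fbxw7 RPFs of S51A against S51 with bortezomib (-0.67, adjusted p = 0.057) also lost their calls. RPF depth limits members under about 5 CPM, such as Fbxo2 and Fbxw17.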
